A study of Mus musculus with 9 samples.

Results

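Bile acid and organic anion transporters of the mouse liver were followed as a set of 10 genes, Slc10a1, Slco1a1, Slco1a4, Slco1b2, Abcb11, Abcb4, Abcc2, Abcc3, Abcc4 and Slc51b. They were taken by symbol, and all 10 had a row among the 17154 genes listed in both deposited count tables. RNA-seq had been done on livers of male C57BL/6 mice in 3 groups of 3 libraries. CT libraries came from untreated C57BL/6J mice, whose age is given as about 8 to 12 weeks. MMI mice drank water with 0.1% methimazole, an inhibitor of thyroid hormone synthesis, for 20 days and were hypothyroid, and the study's methods add sodium perchlorate, a blocker of thyroidal iodide uptake, to the water. MMI+T3 mice had the same drinking water followed by an injection of the active thyroid hormone T3 (triiodothyronine) on each of 5 days, and livers were taken 24 hours after the final dose. No group analysed here had T3 without methimazole, so the MMI+T3 livers were compared to hypothyroid livers and to untreated livers.

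Hepatocytes take up bile acids and other organic anions from the blood of the sinusoids, the capillaries of the liver, and pump them into the bile canaliculus on the other side of the cell. Slc10a1 (NTCP) and the Slco proteins carry out the uptake, and the ATP-driven pumps Abcb11 (BSEP), Abcb4 and Abcc2 act at the canalicular membrane. Abcc3, Abcc4 and Slc51b return bile acids and conjugates to the blood across the basolateral membrane, a route that is known for its rise when bile flow is blocked.

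Library totals ranged from 17256776 counts in MMI replicate 3 to 22599227 counts in MMI replicate 2. Mitochondrial genes took 4.99% of the counts of MMI replicate 3 and 3.29% to 3.76% in the other libraries. All 11 hepatocyte marker genes were present in every group. Their summed level was 47483 to 50139 CPM (normalised counts, relative to the scaled library total) in CT. The range was 36441 to 40557 CPM in MMI and 30817 to 31668 CPM after T3. Abundant genes weigh most in this sum. Alb alone took 2.21% to 2.36% of the counts in CT, 2.01% to 2.17% in MMI and 1.17% to 1.30% in MMI+T3. The median log2 fold change of the 11 markers was -0.31 in MMI compared to CT. In MMI+T3 compared to MMI it was 0.08, with 4 markers called lower and 0 higher. The 12 macrophage markers summed to 133.4 to 166.7, 104.5 to 146.1 and 313.7 to 608.6 CPM in the same order, and each of the 12 rose in MMI+T3 compared to MMI. The part of these shifts in the transporter values was not tested, and in whole liver a change in the number of cells of a type cannot be told apart from a change of RNA per cell.

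Compared to MMI, 2 of the 10 transporter genes rose in MMI+T3, Abcb11 and Slc51b, and 5 fell, Slco1a4, Slco1b2, Abcc2, Abcc3 and Abcc4 (edgeR quasi-likelihood test, adjusted p under 0.05). Over all 14109 genes tested, 9.83% were called higher and 7.18% lower. The median log2 fold change was -0.23 over the 10 genes and -0.02 over all genes tested. The count of genes called lower was 2 without MMI replicate 2 or without MMI+T3 replicate 1, and 3 without MMI+T3 replicate 2 or replicate 3. Abcc3 and Slco1a4 were called lower in each fit that left out a library, and Abcb11 higher. Slc51b was also called higher in each, but it passed the filter on low counts only through the MMI+T3 libraries and so had to differ.

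Compared to CT, MMI livers showed 2 of 9 genes tested higher, Abcc3 and Abcc4, and 1 lower, Slco1a1, where 2.48% of 13925 genes were called higher and 2.8% lower. Slc51b did not pass the filter on low counts there. The median over the 9 genes was -0.22, against 0.01 over all genes. The count of higher genes was 1 without any single CT library, and that of lower genes was 2 without MMI replicate 3. In MMI+T3 compared to CT, 2 of 10 were higher, Abcc4 and Slc51b, and 4 lower, Slco1a1, Slco1a4, Slco1b2 and Abcc3. Slc51b passed the filter in that comparison only through the MMI+T3 libraries and so had to differ. There 13.3% of 13847 genes were called higher and 12.3% lower, and the medians were -0.24 over the 10 genes and 0.01 over all genes. The comparisons share libraries and are not independent of each other. CT had its own count table and was the only group without the drugs in the water. Effects of the table, of the drugs and of thyroid state therefore cannot be told apart in either comparison with CT.

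**Figure D1:**
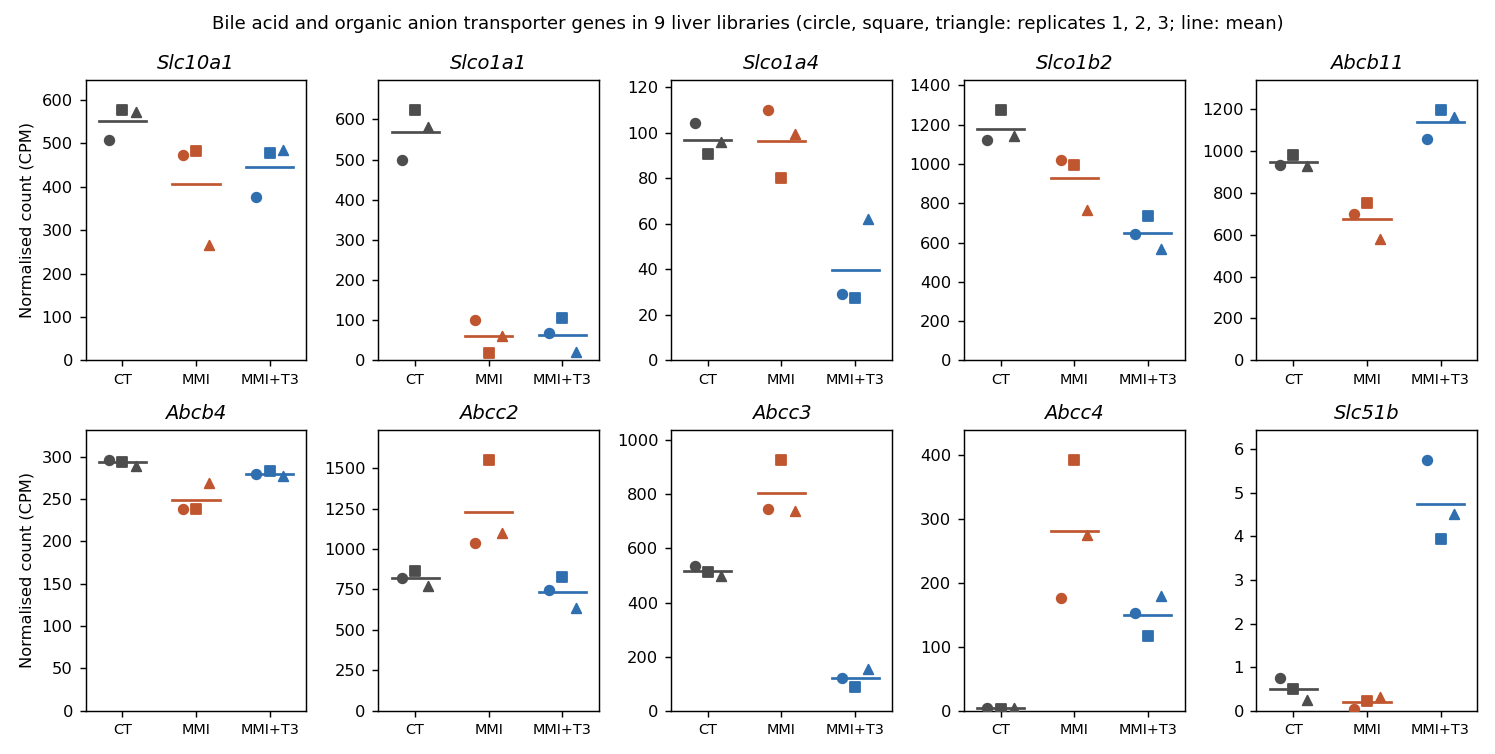
Normalised count (CPM, vertical axis from 0) of each of the 10 transporter genes in the 3 libraries of CT, MMI and MMI+T3, with the mean as a line. Abcc4 lies between 3.4 and 5.08 CPM in CT and at 116.9 CPM or more in the other libraries, while Abcb4 stays between 238.1 and 296 CPM in all 9.

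**Figure D2:**
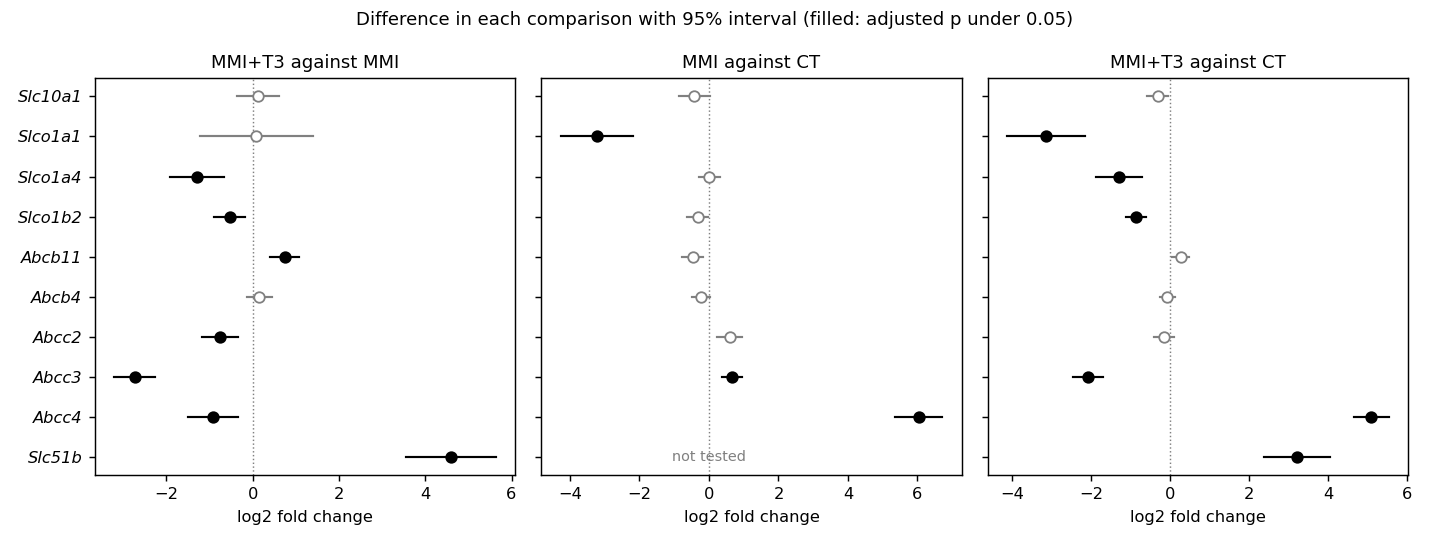
Log2 fold change (horizontal axis) with its 95% interval for each gene in the 3 comparisons, filled where the adjusted p was under 0.05. The interval of Slco1a1 in MMI+T3 against MMI is the widest of the uptake genes, from -1.23 to 1.40, and Slc51b was not tested in MMI against CT.

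The uptake genes Slco1b2, Slco1a4 and Slco1a1 lie in one stretch of chromosome 6, with Gm5724 between Slco1b2 and Slco1a4 (GRCm38, GENCODE M21). Slco1b2 (ENSMUSG00000030236) runs from 141629518 to 141686646 on the plus strand. Slco1a4 (ENSMUSG00000030237, 141805440 to 141856199) and Slco1a1 (ENSMUSG00000041698, 141907282 to 141946962) are on the minus strand. Their levels are given in turn with those of Slc10a1 on chromosome 12 (ENSMUSG00000021135, 80953183 to 80968705, minus strand). Of the 100-base stretches of their transcripts, 0.614% for Slco1a1 and 0.640% for Slco1a4 occur in each other or in Slco1a5, and none for Slco1b2, so few reads could be exchanged between copies.

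Slco1a1 encodes an organic anion transporter that is abundant in male mouse liver and carries bile acids, steroid sulfates and thyroid hormones. Its level was 497.5, 623.7 and 581 CPM in CT replicates 1 to 3, 101.6, 17.4 and 60.4 CPM in MMI, and 68.9, 104.6 and 19.8 CPM in MMI+T3. All 6 libraries of MMI and MMI+T3 were below the lowest CT library, and within each of these groups the highest library was more than 5 times the lowest. The log2 fold change was -3.23 in MMI compared to CT (SE 0.47, edgeR adjusted p = 0.00266), a 9.39-fold decrease with a 95% interval of 4.57 to 19.3, and -3.86 without MMI replicate 1. The change was -3.15 in MMI+T3 compared to CT (SE 0.45, adjusted p = 0.0006). Between MMI+T3 and MMI the libraries overlapped over nearly their whole range, with a log2 difference of 0.09, a 95% interval from -1.23 to 1.40 and an adjusted p of 0.944. This difference turned to -0.36 without MMI replicate 2 and to -0.45 without MMI+T3 replicate 2.

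Slco1a4 encodes a carrier of bile acids and of drugs such as digoxin. It was at 104.2, 90.7 and 96 CPM in CT, 110.1, 80.2 and 99.4 CPM in MMI, and 29.4, 27.4 and 62.2 CPM in MMI+T3. CT and MMI overlapped, and each MMI+T3 library was below all 6 of them, with replicate 3 the highest of its group. The log2 fold change of MMI compared to CT was 0.01 (95% interval -0.30 to 0.32, edgeR adjusted p = 0.98), and its sign turned under several alternatives. T3 was accompanied by a fall of 2.46-fold compared to MMI (95% interval 1.59 to 3.81, adjusted p = 0.00978). Compared to CT the fall was also 2.46-fold (1.64 to 3.67, adjusted p = 0.00472).

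Slco1b2 encodes the rodent counterpart of the liver-specific human carriers of bile acids, bilirubin and statins. In CT it stood at 1121, 1275 and 1143 CPM, in MMI at 1022, 996 and 768 CPM, and in MMI+T3 at 643, 735 and 566 CPM. The 3 groups did not overlap and were ordered CT, MMI, MMI+T3 from high to low. From CT to MMI+T3 the decrease was 1.83-fold (95% interval 1.53 to 2.19, edgeR adjusted p = 0.000372). Compared to CT, MMI gave a log2 difference of -0.33 (SE 0.14, adjusted p = 0.235). The decrease of 1.45-fold in MMI+T3 compared to MMI (1.13 to 1.87) had an adjusted p of 0.0477. That call was lost with DESeq2 size factors (0.0518), with no filter on low counts (0.0623), and without MMI replicate 1 (0.170) or 2 (0.115) or MMI+T3 replicate 1 (0.152), 2 (0.0619) or 3 (0.169).

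Slc10a1 is the main sodium-dependent bile acid carrier of the hepatocyte. Its values were 508, 577 and 571 CPM in CT, 472, 483 and 265.4 CPM in MMI, and 376, 478 and 484 CPM in MMI+T3. No MMI or MMI+T3 library reached the CT range, and MMI replicate 3, the library with the high mitochondrial share, stood apart at the low end. None of the 3 comparisons passed the test. The log2 difference was -0.43 in MMI compared to CT (95% interval -0.87 to 0.02, edgeR adjusted p = 0.281). Against CT, MMI+T3 gave -0.32 (-0.58 to -0.06, adjusted p = 0.0737), with an adjusted p of 0.0355 by DESeq2 and of 0.0465 by edgeR without MMI+T3 replicate 3. Against MMI it gave 0.12 (-0.37 to 0.60, adjusted p = 0.769), and -0.11 without MMI replicate 3.

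Of the canalicular pumps, Abcb11 encodes the bile salt export pump, the step that drives bile acid flow into bile (ENSMUSG00000027048, chromosome 2, 69238282 to 69342616, minus strand). Its level was 929, 977 and 926 CPM in CT, 696, 749 and 577 CPM in MMI, and 1057, 1194 and 1161 CPM in MMI+T3. The groups did not overlap, with MMI lowest and MMI+T3 highest. Abcb11 rose 1.67-fold in MMI+T3 compared to MMI (log2 fold change 0.74, 95% interval 0.40 to 1.07, SE 0.15, edgeR adjusted p = 0.00678). The other steps did not pass the test in the comparison as fitted. MMI compared to CT gave a log2 difference of -0.47 (SE 0.13, adjusted p = 0.0701), which passed with DESeq2 (0.0115), with all 9 libraries in one edgeR fit (0.0415) and without MMI replicate 3 (0.0472). MMI+T3 compared to CT gave 0.26 (SE 0.09, adjusted p = 0.0696), which passed with a filter of at least 50 counts in 3 libraries (0.0496). Abcb11 exons share 136 bases with the antisense gene Gm13613 and 19 bases with the pseudogene Gm13614, and since the strand setting of the counting was not given in the sources used here, reads over these bases cannot be assigned to a strand.

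Abcb4 encodes the flippase that supplies phosphatidylcholine to bile (ENSMUSG00000042476, chromosome 5, 8893717 to 8959231, plus strand). Its values were 296, 294.1 and 289.6 CPM in CT, 238.7, 238.1 and 269.1 CPM in MMI, and 279.1, 283.1 and 277.7 CPM in MMI+T3. MMI was below both other groups in every library, yet the log2 differences were small. They were -0.22 in MMI compared to CT (95% interval -0.48 to 0.04), 0.15 in MMI+T3 compared to MMI (-0.13 to 0.44) and -0.08 in MMI+T3 compared to CT (-0.26 to 0.11). The edgeR adjusted p-values were 0.339, 0.473 and 0.544. Of its 100-base stretches, 0.288% occur in Abcb1a or Gm35082.

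Abcc2 (MRP2) exports bilirubin glucuronide, glutathione conjugates and other divalent anions into bile (ENSMUSG00000025194, chromosome 19, 43782192 to 43840740, plus strand). It stood at 821, 866 and 770.5 CPM in CT, 1039.7, 1549 and 1096 CPM in MMI, and 745, 825 and 634 CPM in MMI+T3. Every MMI library was above all 6 others, and CT and MMI+T3 overlapped. Abcc2 fell 1.69-fold in MMI+T3 compared to MMI (95% interval 1.27 to 2.25, edgeR adjusted p = 0.0169). This call was lost without MMI replicate 2 (0.0543), MMI+T3 replicate 1 (0.0640) or MMI+T3 replicate 3 (0.0755). In MMI compared to CT the log2 difference was 0.60 (SE 0.16, adjusted p = 0.0623), which passed with upper quartile scaling (0.0487), DESeq2 (0.0106), all 9 libraries in one fit (0.0484) and without MMI replicate 1 (0.0453) or 3 (0.0320). MMI+T3 compared to CT gave -0.17 (95% interval -0.42 to 0.08, adjusted p = 0.317).

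In both comparisons with CT the largest difference of the genes tested was that of the basolateral exporter Abcc4. In MMI+T3 compared to MMI it was that of Slc51b, which passed the filter only through the MMI+T3 libraries. The next largest there was that of Abcc3. Abcc3 (MRP3) sends glucuronides and bile acids back to the blood (ENSMUSG00000020865, chromosome 11, 94343295 to 94392997, minus strand). It was at 535, 514 and 496 CPM in CT, 747, 926 and 738 CPM in MMI, and 120.3, 89.5 and 155.4 CPM in MMI+T3. The groups did not overlap, and all MMI+T3 libraries were far below the lowest CT library. Abcc3 rose 1.58-fold in MMI compared to CT (95% interval 1.29 to 1.93, edgeR adjusted p = 0.0165), a call lost without CT replicate 1 (0.0570), 2 (0.105) or 3 (0.114). It fell 6.68-fold in MMI+T3 compared to MMI (4.81 to 9.28, adjusted p = 1.22e-05). Compared to CT it fell 4.26-fold (3.27 to 5.56, adjusted p = 1.71e-05), so the MMI+T3 livers were below the untreated level and not at it.

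Abcc4 (MRP4) transports bile acids together with glutathione and also cyclic nucleotides and steroid sulfates (ENSMUSG00000032849, chromosome 14, 118482692 to 118706219, minus strand). Its counts were 109, 62 and 90 in CT, 3900, 9125 and 5244 in MMI, then 2936, 2405 and 3692 in MMI+T3. As normalised counts these were 5.08, 3.40 and 4.50 CPM, then 176.9, 391.7 and 275.2 CPM, then 153.5, 116.9 and 179.6 CPM. CT lay far below both other groups, and the highest MMI+T3 library was just above the lowest MMI library. Abcc4 rose 65.4-fold in MMI compared to CT (95% interval 40.6 to 105.3, log2 fold change 6.03, SE 0.31, edgeR adjusted p = 1.99e-06), the largest change of the 9 genes tested there. MMI+T3 livers were 34.2-fold higher than CT (25.2 to 46.5, adjusted p = 8.66e-08). The fall from MMI to MMI+T3 was 1.90-fold (1.27 to 2.83, adjusted p = 0.0340). Of the fits with a library left out, this call was lost without MMI replicate 2 (0.0999) or 3 (0.0643) and without MMI+T3 replicate 1 (0.0931) or 2 (0.117).

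Slc51b encodes the beta subunit of the organic solute transporter, which works only together with the alpha subunit encoded by Slc51a (ENSMUSG00000053862, chromosome 9, 65412714 to 65422955, minus strand). Slc51b is known as a scarce transcript in mouse liver. Its counts were 16, 9 and 5 in CT, 1, 5 and 6 in MMI, then 110, 81 and 93 in MMI+T3. These correspond to 0.75, 0.49 and 0.25 CPM, to 0.05, 0.21 and 0.31 CPM and to 5.75, 3.94 and 4.52 CPM, so that MMI+T3 stood apart and CT and MMI overlapped. Slc51b passed the filter only through the MMI+T3 libraries and so had to differ. With that limit, it rose 24.2-fold compared to MMI (95% interval 11.7 to 49.9, edgeR adjusted p = 7.69e-05) and 9.29-fold compared to CT (5.19 to 16.6, adjusted p = 0.000178). MMI compared to CT could be fitted only with no filter, with a log2 difference of -1.37 and an adjusted p of 0.391, and in a few other alternatives. Its exons share 91 bases with Rasl12 on the opposite strand. Slc51a had no row in the tables used here.

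Promoter sequences of 9 of the 10 genes were found in a RefSeq table (GRCm38.p6) as windows from 250 bases before to 50 bases after 11 start sites, and Abcc3 was not among them. They were searched on both strands for short motifs of regulators known to act on such genes. The antioxidant response core, TGACNNNGC, bound by NRF2, was found in 3 of the 11 windows, those of Abcc2 and of both start sites of Abcc4. Of all 32817 windows, 12.4% hold it. The nuclear receptor motif AGGTCA was found in 6 of the 11, those of Slco1a1, Slco1b2, Abcb11, Abcc2 and Slc51b and the second window of Slc10a1. It is held by 16.3% of all windows. The STAT motif TTCNNNGAA was in 4 of the 11, those of Slco1b2 and Slc51b and the first windows of Slc10a1 and Abcc4, against 8.29% of all windows. The HNF1 motif GTTAAT was in 1 of the 11, that of Slco1b2, against 7.1%. A pair of AGGTCA motifs arranged as DR4, a thyroid hormone receptor arrangement, or as IR1, the FXR arrangement, had no exact match in the 11 windows. In all windows the shares were 0.0152% and 0.00914%. With shares this low, the lack of an exact match in 11 windows says nothing about these genes. Matches with a differing base were not sought. The nuclear receptor motif and the antioxidant core both hold TGAC on one strand, so that their matches can overlap.

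The stretches before the RefSeq start site that hold these matches are shown for the Abcc4 and Abcc2 genes, whose levels were highest in MMI, and for Abcb11 and Slco1a1, as examples of a canalicular and an uptake gene with the nuclear receptor motif. The matches of the other genes are not shown. They read 5′ to 3′ along the gene, and capitals mark the match. The Abcc2 stretch lies just inside the gene as GENCODE annotates it. A match is a description of the letters and not of binding.
Abcc4, first start site, chr14:118706220-118706319, minus strand, antioxidant core: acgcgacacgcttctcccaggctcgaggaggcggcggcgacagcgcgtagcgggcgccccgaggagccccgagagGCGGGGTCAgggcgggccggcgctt
Abcc4, second start site, chr14:118676937-118676966, minus strand, antioxidant core: aaaataatctcgTGACTCTGCcgtggtgga
Abcc2, chr19:43782199-43782228, plus strand, antioxidant core: gctcactgggaTGACATAGCattcatctag
Abcb11, chr2:69342617-69342716, minus strand, nuclear receptor motif: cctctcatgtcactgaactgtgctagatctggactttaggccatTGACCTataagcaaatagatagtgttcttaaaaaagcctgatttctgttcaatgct
Slco1a1, chr6:141946963-141947112, minus strand, nuclear receptor motifs: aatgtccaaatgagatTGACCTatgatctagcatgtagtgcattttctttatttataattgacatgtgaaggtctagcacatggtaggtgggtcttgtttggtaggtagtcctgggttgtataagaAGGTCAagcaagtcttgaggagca

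To compare levels between genes, normalised counts were divided by the length of the exons of each gene (CPM per kilobase). In CT the order was led by Slc10a1 at 251 ± 17 and Slco1b2 at 239 ± 17 CPM per kilobase (SD, n = 3), which overlapped, followed by Abcb11 at 183 ± 5.6. Slco1a1 (107.5 ± 12.2), Abcc2 (96 ± 5.6) and Abcc3 (90.5 ± 3.4) came next, and neighbours among them overlapped. Abcb4 (31.3 ± 0.35) and Slco1a4 (15.1 ± 1.1) stood apart from their neighbours, and Slc51b (0.70 ± 0.35) and Abcc4 (0.68 ± 0.13) overlapped at the bottom.

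In MMI the first 5 genes, Slco1b2, Slc10a1, Abcc2, Abcc3 and Abcb11, lay between 131 ± 17 and 188 ± 28 CPM per kilobase, and neighbours among them overlapped. Abcc4 moved from the last place to the sixth, at 44 ± 17, and Slco1a1 from the fourth to the ninth, at 11.3 ± 8.0. In MMI+T3 Abcb11 led at 221 ± 14, overlapping Slc10a1 at 202.8 ± 27.6, and Slco1b2 followed at 131 ± 17. Abcc4 (23.5 ± 4.9), Abcc3 (21.4 ± 5.8) and Slco1a1 (12.2 ± 8.1) were neighbours that overlapped, and Slc51b at 6.68 ± 1.31 overlapped Slco1a4 at 6.19 ± 3.05.

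Within the uptake genes, the summed level was 613 ± 42 CPM per kilobase in CT, against 400 ± 84 in MMI and 353 ± 36 in MMI+T3. The lowest CT library, at 569, was above the highest of the other groups, at 459. Slco1a1 made up 17.5 ± 0.8% of the sum in CT, against 2.91 ± 1.88% in MMI and 3.42 ± 2.08% in MMI+T3. Slc10a1 made up 41 ± 1%, 45.6 ± 5.3% and 57.5 ± 5.0%, so its share was highest in MMI+T3, where Slco1b2 and Slco1a4 had fallen.

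The canalicular sum differed less, at 311 ± 11, 301.5 ± 44.7 and 337 ± 19 CPM per kilobase in the 3 groups, with overlapping libraries. Its make-up moved between Abcb11 and Abcc2. Abcb11 held 59.1 ± 0.6% of the sum in CT, then 43.6 ± 3.7% in MMI and 65.6 ± 2.5% in MMI+T3. Abcc2 held 30.9 ± 0.8%, 47.5 ± 4.2% and 25.5 ± 2.6%, so that it was above Abcb11 on average in MMI only.

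The basolateral sum was 91.8 ± 3.8 CPM per kilobase in CT, then 185 ± 34 in MMI and 51.5 ± 11.2 in MMI+T3, with no overlap between groups. Abcc3 was nearly the whole of it in CT, at 98.5 ± 0.4%, and held 76.6 ± 5.2% in MMI and 41.2 ± 2.6% in MMI+T3. Abcc4 went from 0.74 ± 0.13% to 23.2 ± 5.2% and 45.6 ± 0.6%. Slc51b held 0.75 ± 0.35%, 0.14 ± 0.11% and 13.2 ± 2.6%. These shares are of transcript levels and carry no test, since the groups of genes were set by role.

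**Figure D3:**
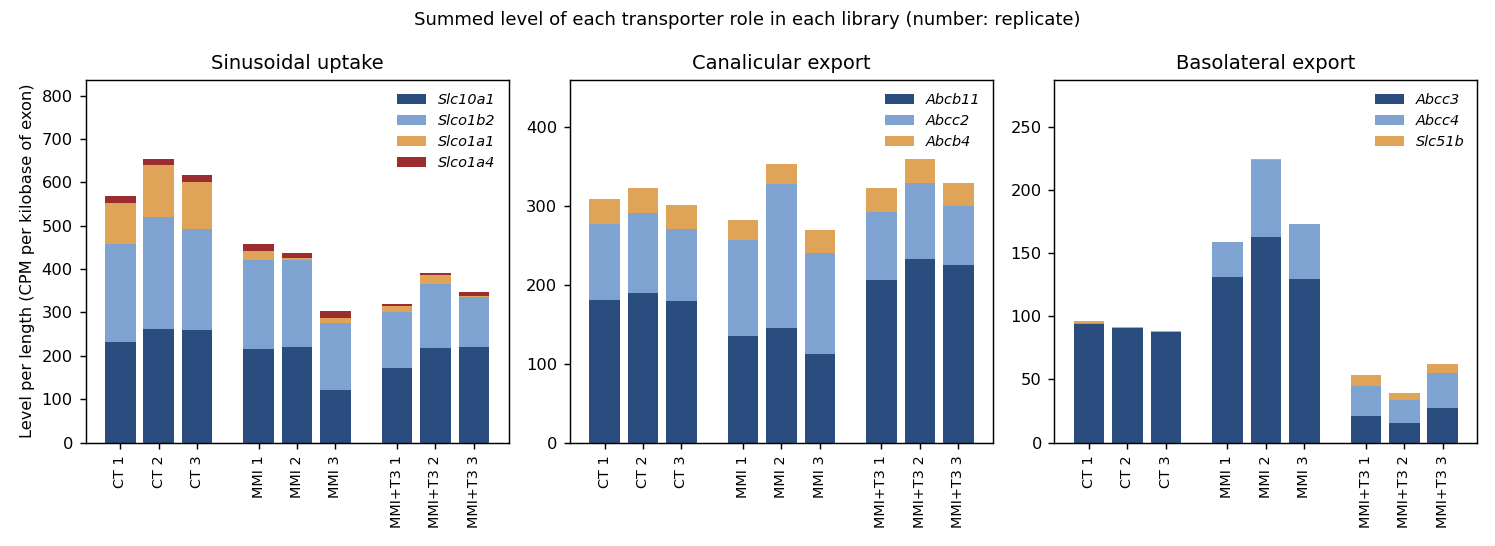
Level per length (CPM per kilobase of exon, vertical axis) of the genes of each role, stacked for each of the 9 libraries. The uptake sum is highest in the CT libraries, the basolateral sum is highest in MMI, and Abcc4 is hardly visible in CT, where it was 0.68 CPM per kilobase.

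The spread between replicates differed widely between the genes. As a coefficient of variation (SD over mean, n = 3), Abcb4 was at 1.13% in CT and 1.00% in MMI+T3, and 1.35% and 0.78% of the genes with at least 5 CPM had a lower value. Slco1a1 was at 70.4% in MMI and 66.0% in MMI+T3, higher than 99.8% and 99.6% of such genes, but at 11.3% in CT. Slco1a4 was at 49.3% in MMI+T3 and Abcc4 at 38.2% in MMI. The median over all such genes was 8.37%, 13.9% and 9.88% in CT, MMI and MMI+T3.

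For each gene the most similar patterns were sought among 9580 genes by the root mean square difference of centred log2(CPM + 0.5) values over the 9 libraries. The difference grows with the size of the pattern, whose own SD on this scale went from 0.11 for Abcb4 to 2.58 for Abcc4, so that it cannot be compared between genes. The likeness says nothing of shared function or control. Slco1a4 was closest to Aqp8, a water channel of the canalicular membrane (0.21), which had 241.6, 234.6 and 90.4 CPM on average in CT, MMI and MMI+T3. It was followed by Crip2 (0.24) and by Cyp8b1 (0.24), the sterol 12-alpha-hydroxylase of bile acid synthesis, at 480, 460.7 and 221.6 CPM. Slco1b2 was closest to Acat1, Abcg2 and Lipc (0.09 each).

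Abcc4 was closest to Cyp2a4 (0.45), at 4.4, 360.5 and 270.6 CPM, and to the carbonyl reductase Cbr3 (0.54), at 1.58, 247.6 and 63.8 CPM, with Gstm3 farther off at 1.06. Reads of Cyp2a4 and Gstm3 may be shared with near-identical family members. Abcc3 was closest to Il17rb (0.20), Retsat (0.21) and Rab11fip4 (0.23). Slco1a1, whose own pattern had an SD of 1.85, was closest to Slc22a28 (0.63), C6 (0.88) and the fatty acid elongase Elovl3 (0.92).

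Abcb11 was closest to H1f0, Nmi and Aars, all within 0.08, and Abcb4, whose own SD was only 0.11, to Szrd1 (0.04), Dedd (0.07) and Vrk1 (0.07). Abcc2 was closest to Prune1 (0.11), the xanthine dehydrogenase gene Xdh (0.12) and Ddc (0.15). Slc10a1 was closest to Nt5dc1, Terf1 and Rnf103 at 0.10 to 0.11. Slc51b was closest to Rab34 (0.21), Podn and Synpo (0.30 each), which were likewise highest in MMI+T3.

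The counts of the related lists that follow are to be read beside the shares over all genes tested. These were 9.83% higher and 7.18% lower in MMI+T3 compared to MMI, and 2.48% and 2.8% in MMI compared to CT. In MMI+T3 compared to CT they were 13.3% and 12.3%. A count near its share is not a result about the list. Among the other bile acid and organic anion transporters, 3 of 14 genes tested were higher and 2 lower in MMI+T3 compared to MMI. Slc10a2, the apical sodium-dependent bile acid transporter, rose to 54 ± 4.8 CPM from 13.9 ± 4.4 CPM (log2 fold change 1.94, edgeR adjusted p = 9.18e-05). It had fallen in MMI from 40.8 ± 2.4 CPM in CT (log2 fold change -1.54, adjusted p = 0.00106). In liver this carrier is known from bile duct cells, whose 8 markers in both tables summed to 85.1 to 141.6 CPM in CT, to 89.1 to 130.6 CPM in MMI and to 73.3 to 137.5 CPM in MMI+T3. Slco4a1 had 1, 0 and 1 counts in MMI compared to 22, 18 and 28 in MMI+T3 and was listed only in the table of these groups. It is 1 of the 3 called higher, but passed the filter only through the MMI+T3 libraries and so had to differ. Slc10a5 rose (0.78, adjusted p = 0.00955), and the prostaglandin carrier Slco2a1 fell from 124.9 ± 34.9 to 43.9 ± 3.8 CPM (-1.52, adjusted p = 0.000278).

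In MMI compared to CT, 2 of 13 of these genes were higher and 1 lower, and in MMI+T3 compared to CT 4 and 2. Abcc12 was at 0.12 ± 0.06 CPM in CT, whereas MMI had 8.23 ± 6.13 CPM and MMI+T3 5.74 ± 1.35 CPM. It was called higher in both comparisons with CT, but there it passed the filter only through the MMI or MMI+T3 libraries and so had to differ. Abcc5 rose in MMI compared to CT (log2 fold change 1.24, edgeR adjusted p = 0.0108), Slco2a1 and Abcg2 fell in MMI+T3 compared to CT (-1.64 and -0.71), and Slc10a2 was 0.40 higher there (adjusted p = 0.016). Slco2b1, a broad organic anion carrier, did not pass in the 3 comparisons, with log2 differences of 0.29 (MMI+T3 against MMI), -0.53 (MMI against CT) and -0.24 (MMI+T3 against CT).

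Of 8 other canalicular lipid and drug transporters, 3 were higher and 1 lower in MMI+T3 compared to MMI. The sterol exporters Abcg5 and Abcg8 rose together, from 126.8 ± 8.3 to 202.4 ± 43.5 CPM and from 149 ± 22 to 249.6 ± 45.6 CPM (log2 fold changes 0.66 and 0.73, edgeR adjusted p = 0.02 and 0.0136). Tmem30a, a subunit of phospholipid flippases, rose by 0.74 and the copper pump Atp7b fell by 0.74 on the log2 scale. By edgeR none of the 8 passed in MMI compared to CT, where 3 were higher and 0 lower at an unadjusted p under 0.05 and DESeq2 called 0. There Abcg5 and Abcg8 had log2 differences of 0.37 and 0.34. Against CT, 4 of 8 were higher in MMI+T3, Abcg5 (1.02) and Abcg8 (1.06) among them, and 3 lower, with Atp7b at -0.59 and the cation exporter Slc47a1 at -0.47.

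Of 28 regulators of transporter genes tested, 5 were higher and 5 lower in MMI+T3 compared to MMI. Nr1h4, which encodes the bile acid receptor FXR, was at 138.5 ± 13.3 CPM in CT, at 122.1 ± 14.7 CPM in MMI and at 124.3 ± 9.4 CPM in MMI+T3 and did not pass in the 3 comparisons. Its target Nr0b2 (SHP), at 84.7 ± 9.7 CPM in MMI, fell to 42.5 ± 5.5 CPM in MMI+T3 (log2 fold change -1.01, edgeR adjusted p = 0.000607). Nr1i3, the xenobiotic receptor CAR, fell from 595 ± 184 to 171.7 ± 35.5 CPM (-1.82, adjusted p = 0.000385), with 398.6 ± 49.4 CPM in CT. Thrb, the main thyroid hormone receptor gene of hepatocytes, gave -0.36 (adjusted p = 0.125).

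The 4 regulators with the smallest adjusted p in MMI+T3 compared to MMI were Cux2, Esr1, Stat5a and Stat5b. Cux2, a repressor known for its female-biased expression in mouse liver, rose to 78.2 ± 12.3 CPM in MMI+T3 from 0.63 ± 0.20 CPM in MMI and was at 0.18 ± 0.14 CPM in CT. The MMI+T3 libraries were the only group to meet the filter on low counts by itself, so Cux2 had to differ. It is among the 5 called higher, but is given here by its levels alone and not by its adjusted p. Esr1 rose from 11.8 ± 5.0 to 90.8 ± 3.2 CPM (log2 fold change 2.92), Stat5a from 14.6 ± 4.4 to 62.3 ± 1.3 CPM (2.08) and Stat5b from 60.2 ± 2.4 to 154.5 ± 13.9 CPM (1.34). In MMI compared to CT, 1 of 27 regulators passed, Stat5b, which was lower (-0.70, edgeR adjusted p = 0.00451). DESeq2 called 1 higher and 3 lower there. Against CT, 5 were higher and 9 lower in MMI+T3, Stat5a and Esr1 among the higher (1.31 and 2.28) and Nr0b2 among the lower (-1.21).

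Of 8 NRF2 targets outside the transporters, 6 rose in MMI compared to CT and 0 fell, where edgeR gave 7 higher and 0 lower at an unadjusted p under 0.05 and DESeq2 called 7 and 0. NRF2 is the transcription factor of the oxidative and electrophile stress response, and Abcc2, Abcc3 and Abcc4 are known among its targets in mouse liver. Whether NRF2 had a part in the levels of these transporters was not tested. Nqo1, a quinone reductase, rose from 7.97 ± 0.97 to 70.3 ± 24.3 CPM (log2 fold change 3.15, adjusted p = 1.74e-05). Srxn1 rose by 2.42, and Gclc, which makes glutathione precursors, by 1.30. In MMI+T3 compared to MMI, 4 of the 8 fell, Gclc (-1.71), Ephx1 (-1.21), Ugdh (-0.84) and Srxn1 (-0.80), and 0 rose. At an unadjusted p under 0.05, edgeR gave 7 lower and 0 higher, and DESeq2 called 4 and 0. Nqo1 gave -0.58 there (adjusted p = 0.0934). Against CT, 4 were higher in MMI+T3, with Nqo1 at 2.57 and Srxn1 at 1.61, and 1 was lower.

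Of 11 genes of the apical scaffold and of transporter trafficking, 1 was higher in MMI+T3 compared to MMI, Slc9a3r1, a scaffold of canalicular proteins (0.68, edgeR adjusted p = 0.00601). None was lower by edgeR or DESeq2, and 1 was at an unadjusted p under 0.05. In MMI compared to CT edgeR called 0 of 11, with 2 higher and 2 lower at an unadjusted p under 0.05 and 0 and 2 by DESeq2. Msn rose by 0.60 in MMI+T3 compared to CT, and Rdx and Rab11a fell by 0.36 and 0.35 on the log2 scale.

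**Figure D4:**
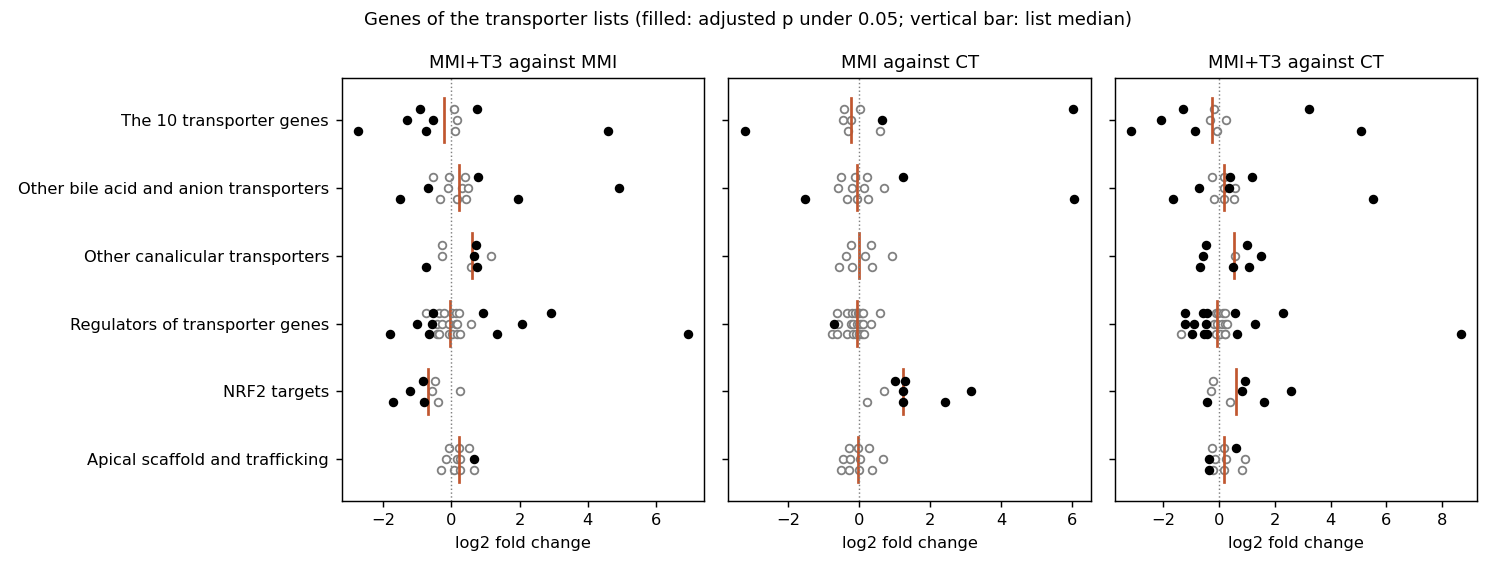
Log2 fold change (horizontal axis) of every tested gene of the 10 transporters and of 5 lists of related genes in the 3 comparisons, filled where the adjusted p was under 0.05, with the list median as a bar. The NRF2 targets have a median of 1.23 in MMI against CT and of -0.69 in MMI+T3 against MMI. The regulators have medians near 0 with single genes such as Cux2 far to the right. Cux2 met the filter on low counts only through the MMI+T3 libraries.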

How the data were processed

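The deposited values are raw read counts for each gene, which the authors did not normalize, in a table for MMI and MMI+T3 (17758 genes) and another for CT (17477 genes), and the first had been filtered on low counts (lowest sum 10). The study's methods name stranded poly(A) libraries, trimming, alignment with STAR, HTSeq counting and DESeq2 testing, whereas per the submitters' processing notes the tools were HISAT2 2.1.0 with HTSeq 0.6.1p1, on GRCm38. Which aligner was used was not settled, and the strand setting and the treatment of reads with several matches are not given in the sources used here. In either table, 21 symbols turned into dates were restored by gene ID.

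Each comparison was fitted on its 6 libraries with edgeR 4.0.16 (R 4.3.3), with TMM scaling, the default filter (minimum count 10), the two-sided quasi-likelihood test and Benjamini-Hochberg adjustment over all genes tested at 0.05. Intervals are 95% and, like p-values, measure only how far these libraries differ, which can be technical, since the labels do not tie each library to a separate mouse. CPM are scaled by TMM over 9 libraries and are given as mean ± SD. Replicates differed beyond sampling noise (chi-square over degrees of freedom 14 to 59.6), so none was merged. Alternatives were DESeq2 1.42.0 size factors and Wald test, upper quartile scaling, limma-voom (limma 3.58.1), other filters, all 9 libraries in one fit, a replicate block and leaving out each library. The procedure was tested on simulated data with 200 changed genes, where the share of false calls in a single draw was above the nominal one, most in MMI+T3 against CT.

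The 10 genes, 5 lists of related genes and 7 marker lists were chosen with earlier results of these data known. Named were the 10 genes, up to 4 genes of each list with the smallest adjusted p past the threshold in a comparison, Slc51a, Slco2b1, Abcg5, Abcg8, Nr1h4, Nr0b2, Nr1i3, Nqo1 and Thrb, and the 3 genes most like each transporter among those of at least 5 CPM, leaving out predicted genes. Coordinates, exon lengths and overlaps are from GENCODE M21 (GRCm38), and promoters from RefSeq (GRCm38.p6).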

Additional observations from a re-analysis of the deposited data

How the results depend on the processing

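For the 10 genes, 367 alternative values kept direction and side of the threshold, 18 lost the call, 12 gained one and 9 changed sign. The sign changes all concern differences that did not pass. Slco1a4 in MMI against CT (0.01) was -0.0062 with no filter and -0.010 with DESeq2, and -0.10 to 0.12 with a library left out. In MMI+T3 against MMI, Slc10a1 ranged from -0.11 to 0.25 and Slco1a1 from -0.45 to 0.71 with a library left out. The count of genes lower in MMI+T3 against MMI (5) was 2 to 4 with a library left out. In MMI against CT the lower count (1) was 2 with DESeq2 and 2 with all 9 libraries in one fit, and 1 to 2 with a library left out, and the higher count (2) was 1 to 3. The causes were not tested, beyond the smaller number of libraries. Over all genes, 736 called in MMI against CT became 1152 with DESeq2, 341 without CT replicate 2 and 382 without CT replicate 3. Scaled by library totals only, Abcb11 was 892.3 CPM, Abcb4 277.2 CPM and Abcc3 487.5 CPM in CT, and Abcb4 283 CPM in MMI+T3. From raw counts not divided by length, Slco1a1 made up 23.6% of uptake in CT, Abcb11 45.9%, 31.5% and 52.9% of canalicular export in CT, MMI and MMI+T3, and Abcc4 54.5% of basolateral export in MMI+T3. No clear pairing of libraries by replicate number was seen, though so few libraries cannot exclude it. Correlations of same-numbered deviations were 0.06, 0.00 and 0.16 (MMI+T3 with MMI), -0.07, -0.04 and 0.14 (MMI with CT) and 0.09, 0.14 and -0.04 (MMI+T3 with CT), and not every library correlated best with its own number. With the replicate block, Abcc4 in MMI+T3 against MMI lost its call (log2 difference -0.87, edgeR adjusted p = 0.0542), Slc10a1 in MMI+T3 against CT gained one (-0.32, 0.0343), and no other call of the 10 genes changed, while all genes called numbered 2530, 984 and 3759 compared to 2400, 736 and 3548. The counts of Slc51b in CT and MMI, 1 to 16, limit its level there.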

Other observations

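The marker lists of other cell types gave these further counts by edgeR, to be read beside the same shares over all genes tested. Those shares were 9.83% higher and 7.18% lower in MMI+T3 compared to MMI, and 2.48% and 2.8% in MMI compared to CT. In MMI+T3 compared to CT they were 13.3% and 12.3%. Of 12 endothelial markers, 3 rose in MMI compared to CT and 6 in MMI+T3 compared to CT. In MMI compared to CT all 12 were higher at an unadjusted p under 0.05, DESeq2 called 5 higher, and the median log2 fold change was 0.60. Their summed level was 261 to 341.4 CPM in CT, 375.4 to 484.7 CPM in MMI and 393.4 to 419.3 CPM in MMI+T3. Of 5 erythroid markers, 2 fell in MMI compared to CT and 1 in MMI+T3 compared to CT, and 1 fell in MMI+T3 compared to MMI. Of 10 stellate cell markers, 1 rose in MMI+T3 compared to CT. The 12 macrophage markers all rose in MMI+T3 compared to CT. Of 11 hepatocyte markers, 4 fell in MMI+T3 compared to MMI, 1 in MMI compared to CT and 5 in MMI+T3 compared to CT. Of 7 bile duct markers tested, 1 fell in MMI+T3 compared to CT. Of 6 small intestine markers, 1 was tested, and it fell in MMI+T3 compared to MMI and to CT.

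Extreme values of several transporters fell in the same libraries. MMI replicate 2 had the lowest Slco1a1 of MMI (17.4 CPM) and the highest Abcc2 (1549 CPM), Abcc3 (926 CPM) and Abcc4 (391.7 CPM). MMI+T3 replicate 3 had the lowest Slco1a1 of its group (19.8 CPM) and the highest Abcc3 (155.4 CPM), Abcc4 (179.6 CPM) and Slco1a4 (62.2 CPM). Other genes went opposite ways in these libraries. Abcc2 was lowest of its group in MMI+T3 replicate 3 (634 CPM), and Slco1a4 was lowest of its group in MMI replicate 2 (80.2 CPM). With 3 libraries in a group no test was made of this.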
